A study of Mus musculus with 36 samples.

Results

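The MHC class II presentation genes described here are 7 mouse genes: H2-Aa, H2-Ab1 and H2-Eb1, which encode chains of the class II molecules, the peptide-loading genes H2-DMa and H2-DMb1, the invariant chain gene Cd74, and the transactivator gene Ciita. They were chosen by name from the pathway, each was represented by the brightest of its probe sets over all 36 arrays, and they make up 7 of the 17097 genes tested. All 7 were measured, and none was removed by a filter on low values. Ciita was the dimmest, with group means between 11.5 and 56.2 on a scale where the median of an array lay between 14 and 16.

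Class II molecules are pairs of an alpha and a beta chain that carry peptides from endocytosed protein to the cell surface, where CD4+ T cells read them. The invariant chain fills the groove during transport, H2-DM exchanges its remnant for peptide, and H2-O, found mainly in B cells and thymus, restrains H2-DM. Dendritic cells, macrophages and B cells express these genes, and intestinal epithelial cells can start to do so when interferon-gamma induces Ciita. The CIITA protein does not bind DNA itself but joins the factors RFX, CREB and NF-Y that occupy the X and Y boxes of class II promoters.

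Total RNA of whole colon tissue was measured on 1-colour Affymetrix perfect-match arrays in mice that were 6 to 8 weeks old, either lacking Il17rc (KO) or wild type (WT). Il17rc encodes a receptor subunit for IL-17A and IL-17F. Untreated animals of both genotypes (4 KO, 4 WT) were sampled at day 0. All other groups of both genotypes had been injected with azoxymethane (AOM), a colon carcinogen, followed by cycles in which 3% dextran sulfate sodium (DSS), which injures the colon lining, was drunk for 5 days before 14 days on regular water, with 3 cycles in the full protocol. The labels do not say where day 7 and day 15 fall within the cycles. These were day 7 (4 KO, 4 WT), day 15 (4 KO, 4 WT) and tumor at day 63 (6 KO, 6 WT). The labels do not give the strain, sex and housing of the groups, the kind of Il17rc allele or whether each array is a separate animal, so p-values reflect the spread between arrays only, part of which may be technical. Since day 63 animals were also older, age, time and tissue make-up cannot be told apart from the protocol in comparisons with tumors.

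Il17rc lay between 76 and 515 on WT arrays and between 7 and 15 on KO arrays other than day 7, but at 331 and 44 on the arrays labelled KO day 7 replicates 1 and 2, so that group is called by its label throughout. Krt5, a keratin of squamous epithelium, exceeded 100 on 7 arrays: replicates 1 and 4 of untreated WT and of WT day 7, replicates 1 and 2 of KO day 7, and KO tumor replicate 2. No untreated KO array was among them. A fit without these arrays thus keeps every untreated KO array but, of untreated WT, replicates 2 and 3 only. Epithelial markers such as Epcam, Cdh1 and Vil1 were above background on average in every group, with summed intensities of 28267 to 43298 on single arrays.

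The RefSeq promoter windows (GRCm38.p6, 250 bases before to 50 after each start) were searched on both strands for an X-like motif, CTNGNAAC, and a Y box, TGATTGG. The motifs do not overlap each other and were written after these promoters had been seen. The stretches below are shown because they hold the site at which CIITA-dependent transcription is known to be assembled, and the capitals mark the X-like motif and then the Y box.
H2-Aa: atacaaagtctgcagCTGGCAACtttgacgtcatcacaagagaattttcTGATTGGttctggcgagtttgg
H2-Eb1: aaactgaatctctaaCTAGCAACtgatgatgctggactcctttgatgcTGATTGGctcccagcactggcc
H2-DMb1: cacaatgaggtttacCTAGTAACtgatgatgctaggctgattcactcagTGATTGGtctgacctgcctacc
H2-Ob: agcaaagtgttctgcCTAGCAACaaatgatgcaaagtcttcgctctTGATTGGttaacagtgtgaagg
They lie at chr17:34287852-34287922 on the minus strand for H2-Aa, and on the plus strand at chr17:34305758-34305827 for H2-Eb1, chr17:34153079-34153149 for H2-DMb1 and chr17:34238800-34238867 for H2-Ob. The gap between the motifs was 26 bases in H2-Aa and H2-DMb1, 25 in H2-Eb1 and 23 in H2-Ob. Of 32851 promoters of the same length, 13.2% held the X-like motif, 7.82% the Y box and 1.07% both. In 25 promoters, 0.0761%, an X-like motif was followed by a Y box with a gap of 10 to 30 bases. These carried 23 gene symbols, 4 of them the class II genes printed above. The windows of H2-DMb2 and H2-Oa held a Y box and no X-like motif, and that of H2-Eb2 held both without this spacing. The windows of both H2-DMa starts held neither motif. A missing motif says nothing of the factors that act there. The windows of H2-Ab1, Ciita and Cd74 were not analysed here.

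In the same annotation the 5 members with an H2 name lie on chromosome 17, where H2-Aa spans chr17:34282744-34287823, H2-Ab1 chr17:34263227-34269418, H2-Eb1 chr17:34305867-34316674, H2-DMa chr17:34119693-34139101 and H2-DMb1 chr17:34153191-34160229. Ciita lies at chr16:10480014-10531064 and Cd74 on chromosome 18.

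The genotypes were first compared without treatment. In untreated colons all 7 class II genes were higher in KO, by 4.27 to 14.4-fold. For each of them every KO array lay above every WT array. The share of all genes that separate in this way was not counted, here or in any other comparison. Values are deposited intensities on a linear scale, in the order of the replicates. Among the chain genes, the alpha chain gene H2-Aa was at 5320, 4480, 4149 and 3700 in untreated KO colons, against 748, 917, 517 and 773 in untreated WT colons. The beta chain gene H2-Ab1 was at 3476, 3124, 2923 and 2724 in KO, against 259, 405, 189 and 318 in WT. H2-Eb1, the beta chain of the second class II molecule, was at 2765, 3105, 2921 and 2798 in KO, against 358, 592, 279 and 385 in WT. The 4 KO arrays were thus close to each other for all 3 chain genes, while the WT arrays differed more in proportion. By limma on log2 intensities, H2-Aa differed by 2.61 ± 0.38 log2 units (SE, adjusted p = 2.72e-05), H2-Ab1 by 3.41 ± 0.56 (adjusted p = 0.000155) and H2-Eb1 by 2.88 ± 0.50 (adjusted p = 0.000327). The size for H2-Aa depended on the probe set, since its other probe sets gave 3.45 and 3.71 log2 units.

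The peptide-loading genes showed the same separation between untreated genotypes. H2-DMa, the alpha chain of the peptide exchanger, was at 648, 757, 731 and 657 in KO, against 54, 71, 38 and 35 in WT. Its partner H2-DMb1 was at 512, 435, 389 and 388 in KO, against 29, 50, 47 and 35 in WT. Cd74, the chaperone that blocks the groove, was at 1744, 2131, 1860 and 1651 in KO, against 171, 215, 114 and 135 in WT. The lowest KO array of each gene was several times its highest WT array. The log2 differences were 3.85 ± 0.53 for H2-DMa (limma adjusted p = 1.24e-05), 3.42 ± 0.42 for H2-DMb1 (adjusted p = 1.87e-06) and 3.56 ± 0.47 for Cd74 (adjusted p = 4.81e-06). Ciita, which controls the other members, was at 41, 75, 60 and 49 in untreated KO colons, against 14, 11, 11 and 13 in untreated WT colons. It differed by 2.09 ± 0.29 log2 units (limma adjusted p = 9.52e-06). Because WT lay at background the size depends on the pseudocount, 1.34 log2 units with a pseudocount of 16. The other probe sets of Ciita gave 2.57 log2 units and, for one that ran from 6 to 18 over all arrays, 0.69. Of all genes tested, 2.27% passed the threshold of an adjusted p of 0.05 in this comparison, 1.78% being higher in KO. The members' median log2 difference was 3.41, and that of all genes was 0.00372. Without the 7 arrays with Krt5 above 100, untreated WT replicates 2 and 3 alone stood for WT. The members then differed by 2.21 to 3.71 log2 units and all 7 still passed (limma adjusted p = 0.0127 or lower).

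**Figure D1:**
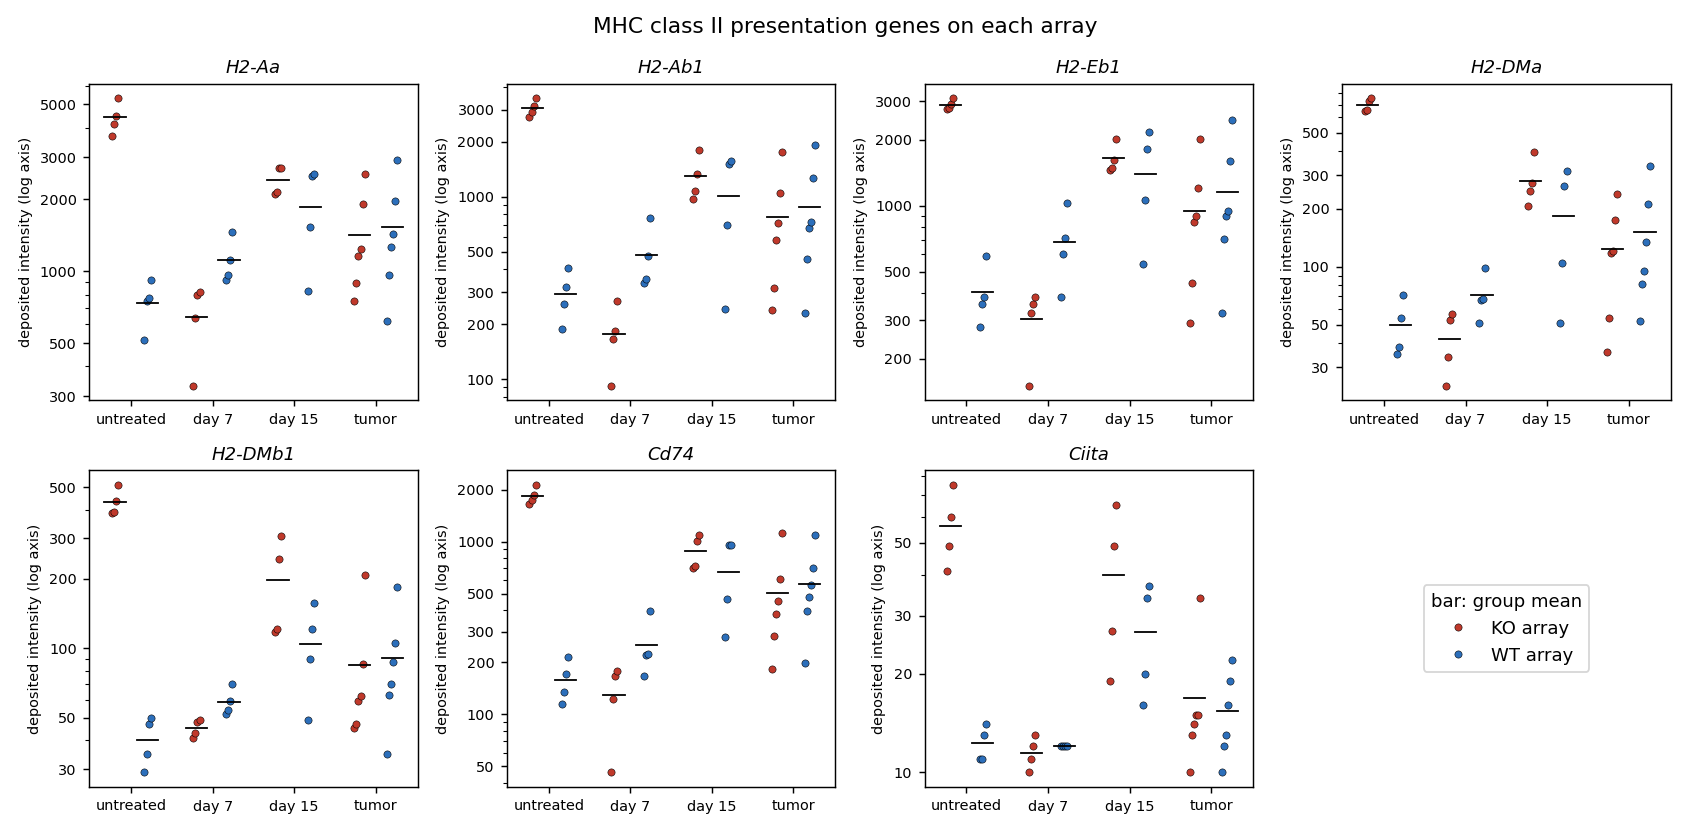
Deposited intensity (log axis) of each class II gene on each array, by stage, with KO arrays left of WT arrays and bars at the group means. In untreated colons every KO array lies above every WT array for all 7 genes, whereas at the tumor stage the genotypes overlap. H2-Aa, for example, is at 3700 or more in untreated KO and 917 or less in untreated WT. The share of all genes that separate was not counted.

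Other genes of class II presentation were read beside the members in untreated colons. Of the 5 partner genes, H2-DMb2 was higher in KO, with means of 1006 in KO and 63 in WT, and it differed by 4.04 ± 0.53 log2 units (limma adjusted p = 4.41e-06). H2-DMb1 and H2-DMb2 are near-identical, so their probe sets may bind each other's transcripts and the split between them is uncertain. H2-Oa and H2-Ob, the chains of the H2-DM inhibitor, differed by 1.28 ± 0.52 and 1.20 ± 0.66 log2 units and did not pass (adjusted p = 0.253 and 0.465). H2-Ea, the alpha partner of the H2-Eb1 chain, which some laboratory strains do not transcribe, averaged 21.8 in KO and 22.8 in WT. None of the 9 genes of the promoter complex passed by limma, 1 having an unadjusted p under 0.05, their median log2 difference was 0.20, and Rfx5, the subunit by which the RFX complex is named, differed by 0.42 ± 0.13 (adjusted p = 0.0906). Without untreated WT replicate 1, 1 of these 9 passed. Of 12 measured genes of the interferon-gamma pathway, 4 were higher in KO and their median log2 difference was 0.32. These were the interferon-responsive transcription factors Irf1 (1.66 ± 0.27 log2 units), Irf9 (1.62 ± 0.26) and Irf8 (1.36 ± 0.25), and interferon-gamma itself, Ifng (0.46 ± 0.10, adjusted p = 0.00463). Ifng lay near background, with means of 12.8 in KO and 9 in WT. The receptor genes Ifngr1 and Ifngr2 differed by 0.31 ± 0.16 and 0.03 ± 0.20 and did not pass.

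Cell type markers also differed between the untreated genotypes to some extent. In bulk tissue, fewer cells of a type and less RNA per cell cannot be told apart. Of 9 T cell markers, 4 were higher in KO, among them the T cell receptor component Cd3d (2.07 ± 0.41 log2 units, limma adjusted p = 0.0018), but 2 passed without untreated KO replicate 1 or 3, and 1 without replicate 2 or without the arrays high in Krt5. Their summed intensity was 178 to 322 in KO and 99 to 114 in WT, with 4 of 9 markers below 16 on average in KO and 8 of 9 in WT. None of 11 macrophage markers passed by limma (7 at an unadjusted p under 0.05), with a median log2 difference of 1.03 and sums of 2645 to 4096 in KO and 1247 to 2503 in WT. None of 8 dendritic cell markers passed (4 unadjusted), with sums of 109 to 152 in KO and 90 to 99 in WT. Those 4, Irf4, Itgax, Batf3 and Itgae, averaged 26, 22, 18.8 and 23.8 in KO and 12.8, 14, 12 and 16.5 in WT. The dendritic cell genes Flt3 and Xcr1 averaged 10.8 and 8 in KO and 8.5 and 7.75 in WT, near background. None of 9 B cell markers passed (3 unadjusted), and the sum was 155, 276, 1107 and 108 on the 4 KO arrays, against 107 to 138 in WT. Without untreated KO replicate 4, 1 marker each of the macrophage, dendritic and B cell lists passed, and 1 macrophage marker passed without untreated WT replicate 2. Of the macrophage markers 5 passed with only the 2 groups in the fit and 3 with array weights, which also let 2 dendritic cell markers pass. None of 10 epithelial markers passed (2 unadjusted), with sums of 39166 to 43298 in KO and 29577 to 39090 in WT. Smooth muscle sums were 15128 to 16274 in KO and 17397 to 22006 in WT. The part of these cell types, B cells included, in the class II result was not tested.

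Arrays labelled KO day 7 were compared with untreated KO colons. All 7 class II genes fell, the 6 other than Ciita by 6.98 to 17.2-fold. The groups did not overlap for any of the 7 (share of all genes not counted). H2-Aa was at 799, 638, 817 and 332 in arrays labelled KO day 7, with the untreated KO arrays between 3700 and 5320. H2-Ab1 was at 184, 165, 269 and 92, with untreated KO arrays at 2724 to 3476. H2-Eb1 was at 382, 323, 356 and 151, with untreated KO arrays at 2765 to 3105. For these chain genes replicate 4 was the lowest array of the group. H2-DMa was at 34, 53, 57 and 24 in arrays labelled KO day 7, against 648 to 757 in untreated KO colons. H2-DMb1 was at 43, 41, 48 and 49, against 388 to 512 in untreated KO colons. Cd74 was at 123, 167, 178 and 46, against 1651 to 2131 in untreated KO colons. Ciita was back at background, at 11, 12, 13 and 10 in arrays labelled KO day 7, with untreated KO arrays at 41 to 75. H2-Ab1 changed by -4.10 ± 0.56 log2 units (limma adjusted p = 5.53e-06), H2-DMa by -4.02 ± 0.53 (3.86e-06), Cd74 by -3.91 ± 0.47 (8.41e-07) and H2-Eb1 by -3.27 ± 0.50 (2.62e-05). H2-DMb1 changed by -3.11 ± 0.42 (adjusted p = 5.39e-06), H2-Aa by -2.80 ± 0.38 (5.41e-06) and Ciita by -2.20 ± 0.29 (2.85e-06). The other probe sets of H2-Aa gave -4.00 and -4.04 log2 units. Because Ciita lay at background at KO day 7, its size depends on the pseudocount, -1.39 log2 units with a pseudocount of 16. In this comparison 12.2% of all genes passed, 6.55% being lower, a split of 964 higher and 1120 lower that became 464 and 1445 with each array centred on its median. Without replicates 1 and 2 of KO day 7, the arrays high in Il17rc, all 7 still passed, at -4.25 to -2.20 log2 units.

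Among the partner genes at day 7 in KO, H2-DMb2 fell by 4.68 log2 units, while H2-Oa and H2-Ob, at means of 13.5 and 8.75, did not pass. Of the promoter complex, Rfx5 fell (-0.46 ± 0.13 log2 units, limma adjusted p = 0.0147) and the NF-Y subunit Nfya rose (0.40 ± 0.13, 0.0363). These calls were fragile: 1 of the 9 genes passed without untreated KO replicate 1, 2 or 4 or KO day 7 replicate 2 or 3, and none without untreated KO replicate 3 or KO day 7 replicate 4. Of the 12 interferon-gamma pathway genes, 5 fell and 1 rose, but 3 passed without the KO day 7 arrays high in Il17rc. Irf8 changed by -1.49 ± 0.25, Irf1 by -1.49 ± 0.27 and Irf9 by -1.10 ± 0.26 log2 units, and Irf2, known to antagonise Irf1, by 0.76 ± 0.22. Macrophage markers moved in the same direction, 8 of 11 being lower at a median of -1.74 log2 units (5 of 11 without KO day 7 replicate 2). The complement genes C1qb, C1qa and C1qc, abundant in gut macrophages, changed by -3.36 ± 0.53, -2.72 ± 0.46 and -2.55 ± 0.45. Summed macrophage markers were 688 to 1575 in arrays labelled KO day 7 and 2645 to 4096 in untreated KO colons. B cell sums were 94 to 112, against 108 to 1107, and all 9 B cell markers averaged below 16 in arrays labelled KO day 7. Dendritic cell sums were 90 to 92, against 109 to 152, and T cell sums 100 to 110, against 178 to 322. Smooth muscle sums were 16751 to 31019, against 15128 to 16274, and epithelial sums 35129 to 39790, against 39166 to 43298. The part of these cell types in the fall of the class II genes was not tested.

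KO colons at day 15 were compared with arrays labelled KO day 7. All 7 class II genes were higher at day 15 and the groups did not overlap (share of all genes not counted). H2-Aa was at 2705, 2698, 2148 and 2107, H2-Ab1 at 1805, 1337, 1069 and 973, and H2-Eb1 at 2015, 1493, 1450 and 1627. H2-DMa was at 398, 272, 207 and 247, H2-DMb1 at 306, 244, 118 and 121, and Cd74 at 1086, 1005, 699 and 719. Ciita was at 65, 19, 27 and 49, so its lowest day 15 array was above its highest day 7 array, 13, by a small margin. The log2 differences were largest for H2-Ab1 (2.81 ± 0.56, limma adjusted p = 0.00038) and Cd74 (2.79 ± 0.47, 5.8e-05), and smallest for Ciita (1.46 ± 0.29, 0.000331, and 0.86 log2 units with a pseudocount of 16) and H2-DMb1 (1.82 ± 0.42, 0.00178). H2-DMa, H2-Eb1 and H2-Aa changed by 2.64 ± 0.53, 2.43 ± 0.50 and 1.90 ± 0.38 (adjusted p = 0.000501 or lower). With the other probe sets of H2-Aa the change was 2.91 and 2.83 log2 units. In this comparison 25.2% of all genes passed, 12.4% being higher. With each array centred on its median instead of quantile normalization, the split of all calls moved to 2642 higher and 1343 lower, where it had been 2120 and 2183, and all 7 members still passed as higher.

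Markers of several immune cell types rose, and those of smooth muscle fell, while the class II genes rose between day 7 and day 15 in KO. Of the partner genes 4 of 5 were higher, H2-Ob by 3.33 ± 0.66, H2-DMb2 by 3.30 ± 0.53, H2-Oa by 2.60 ± 0.52 and H2-Eb2 by 1.22 ± 0.34 log2 units. All 11 macrophage markers were higher, with a median log2 difference of 2.75, and 8 of 9 B cell markers, with a median of 2.06, among them the B cell receptor component Cd79b (3.86 ± 0.63) and Bank1 (3.89 ± 0.69). Summed B cell markers were 2140, 234, 976 and 2428 on the day 15 arrays and 94 to 112 on the day 7 arrays. Macrophage sums were 7632, 4811, 5766 and 14603, against 688 to 1575. Replicate 1, the highest for every member, had the second highest B cell and macrophage sums of its group, and replicate 4 had the highest of both. Of the T cell markers 6 of 9 were higher, and of the dendritic cell markers 6 of 8 (3 with only the 2 groups in the fit). Of 7 smooth muscle markers 6 were lower, at a median of -1.71 log2 units, with sums of 7688 to 14127 at day 15 and 16751 to 31019 in arrays labelled KO day 7. The part of these cell types in the class II result was not tested.

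Against untreated KO colons, no class II gene passed at day 15, and the log2 differences ran from -1.38 for H2-DMa to -0.74 for Ciita. In 6 of 7 genes every day 15 array lay below every untreated array (Ciita overlapped). How many of all genes separate in this way was not counted. Adjusted p-values by limma were 0.126 to 0.410, 6 genes had an unadjusted p under 0.05, and 0.807% of all genes passed. With only the 2 groups in the fit, 5 of the 7 passed. The H2-O genes lay the other way, with mean intensities of 165.5 for H2-Ob and 112 for H2-Oa at KO day 15 and 39 and 48.8 in untreated KO colons, and neither passed.

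KO tumors were compared with untreated KO colons. All 7 class II genes were lower in the tumors, by 3.39 to 6.67-fold. No tumor array reached the untreated range (share of all genes not counted). H2-Aa ran from 751 to 2569 with a median of 1200.5 in KO tumors, and from 3700 to 5320 in untreated KO colons. H2-Ab1 ran from 240 to 1767 (median 646) in KO tumors and from 2724 to 3476 in untreated KO. H2-DMa ran from 36 to 239 (median 119.5) and from 648 to 757. The spread among tumors was wide, with replicate 1 the highest for every member and replicate 2, the tumor high in Krt5, the lowest for H2-Aa, H2-Ab1, H2-Eb1, H2-DMa and Cd74. Cd74 ran from 183 to 1114 (median 416.5) in KO tumors, H2-Eb1 from 293 to 2011 (872), H2-DMb1 from 45 to 209 (60.5) and Ciita from 10 to 34 (14.5). H2-DMa changed by -2.74 ± 0.49 log2 units (limma adjusted p = 0.00012), H2-DMb1 by -2.54 ± 0.38 (1.51e-05), H2-Ab1 by -2.26 ± 0.51 (0.00149) and Cd74 by -2.08 ± 0.43 (0.000578). H2-Eb1 changed by -1.84 ± 0.45 (adjusted p = 0.00323), Ciita by -1.78 ± 0.26 (9.17e-06, and -1.17 log2 units with a pseudocount of 16) and H2-Aa by -1.76 ± 0.35 (0.000371). The size for H2-Aa again depended on the probe set, the others giving -2.41 and -3.05 log2 units. In this comparison 20.7% of all genes passed, 9.91% being lower.

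Macrophage markers did not follow the class II genes in KO tumors. Their sums were 5874 to 9645 in KO tumors and 2645 to 4096 in untreated KO colons, and the median log2 difference of the 11 was 0.75. The lysozyme gene Lyz2 made up a large part of these sums, averaging 4191 in KO tumors and 1405 in untreated KO. It rose by 1.67 ± 0.27 log2 units (limma adjusted p = 2.89e-05). It was the only one of the 11 to pass, whereas 4 passed without KO tumor replicate 2, 2 with only the 2 groups in the fit and 7 with array weights. No B cell, T cell or dendritic cell marker passed by limma (0, 1 and 0 at an unadjusted p under 0.05), although 1 T cell marker did without KO untreated replicate 4 or KO tumor replicate 1. B cell sums ran from 131 to 717 in KO tumors and 108 to 1107 in untreated KO. Of the 12 interferon-gamma pathway genes 6 fell, including Irf8 (-1.61 ± 0.23), Irf1 (-1.29 ± 0.24), Irf2 (-1.03 ± 0.20) and the receptor chain Ifngr1 (-0.69 ± 0.15). In the promoter complex Rfxank, an RFX subunit, fell by 1.24 and the acetyltransferase Kat2b by 0.61 log2 units, and the NF-Y subunit Nfyb rose by 0.55. Smooth muscle markers fell with the class II genes, 6 of 7 being lower in KO tumors at a median of -1.79 log2 units, with sums of 1819 to 13166 in KO tumors and 15128 to 16274 in untreated KO. KO tumor replicate 1, the highest for every member, had the highest of these sums, replicate 2 had the lowest, and the other 4 tumors had 6541 to 9308. The part of smooth muscle in the class II result was not tested. H2-DMb2 fell by 2.78 log2 units, while H2-Oa and H2-Ob differed by -0.05 ± 0.47 and -0.23 ± 0.60 and did not pass.

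Between KO tumors and KO day 15, 2 class II genes fell, H2-DMb1 by 1.24 and Ciita by 1.04 log2 units (limma adjusted p = 0.0272 and 0.00708, Ciita by 0.64 with a pseudocount of 16), with 14.6% of all genes passing and 6.05% lower. That split of 1463 higher and 1034 lower genes became 1070 and 1354 without normalization between arrays. The other 5 differed by -1.35 to -0.86 log2 units and did not pass. This count was 6 without KO tumor replicate 1, 0 without KO day 15 replicate 1 and 1 without KO day 15 replicate 2 or KO tumor replicate 2, 3 or 6.

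In WT the course ran differently, from low untreated levels. At WT day 7 no class II gene differed from untreated WT by limma, adjusted or at an unadjusted p under 0.05, while 1.66% of all genes passed. H2-Aa was at 966, 923, 1465 and 1119 in WT day 7 colons, against 748, 917, 517 and 773 in untreated WT colons. Every day 7 array thus lay just above the untreated ones (share of all genes not counted). H2-DMb1 also separated, at 52 to 70 in WT day 7 colons against 29 to 50 in untreated WT colons. H2-Ab1 was at 355, 336, 761 and 473, against 259, 405, 189 and 318, and Ciita was at 12 on each day 7 array. The members' log2 differences ran from -0.04 for Ciita to 0.75 for H2-Eb1.

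At day 15 in WT, Cd74 and Ciita rose relative to untreated WT colons. Cd74 was at 959, 949, 462 and 280 in WT day 15 colons, against 171, 215, 114 and 135 in untreated WT colons, a log2 difference of 1.92 ± 0.47 (limma adjusted p = 0.0169). Ciita was at 37, 34, 20 and 16, against 14, 11, 11 and 13, a difference of 0.98 ± 0.29 (adjusted p = 0.0489). For both genes the groups did not overlap (share of all genes not counted). H2-Ab1 was at 1575, 1515, 703 and 243 at day 15, H2-DMa at 314, 263, 104 and 51 and H2-Aa at 2502, 2555, 1531 and 829, so replicates 1 and 2 were high and replicate 4 lay in the untreated WT range. H2-Eb1 was at 2165, 1826, 1068 and 541 and H2-DMb1 at 121, 158, 90 and 49, again with replicates 1 and 2 highest and replicate 4 lowest. These 5 genes differed by 1.23 to 1.68 log2 units and did not pass, although all 7 members had an unadjusted p under 0.05. Of all genes 3.37% passed, 2.09% being higher. Leaving out WT day 15 replicate 4 turned the count of 2 into 7. It was 0 without WT day 15 replicate 1 or 2 or untreated WT replicate 3, and 1 without untreated WT replicate 1 or 4. The count was also 0 without the arrays high in Krt5, a fit that kept untreated WT replicates 2 and 3 only. WT day 15 replicate 4, and its KO counterpart, also had the highest intensities of S100a8, a neutrophil gene, at 5585 in WT and 6239 in KO.

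Partner and cell type genes rose with Cd74 and Ciita at WT day 15. H2-Ob (2.91 ± 0.66 log2 units), H2-DMb2 (1.92 ± 0.53), H2-Oa (1.88 ± 0.52) and H2-Eb2 (1.19 ± 0.34) were higher, with limma adjusted p = 0.0442 or lower. That count of 4 was 2 without untreated WT replicate 1, 1 without untreated WT replicate 3 or 4 or WT day 15 replicate 1 or 2, and 0 without the arrays high in Krt5. Of 9 B cell markers 4 rose, including Cd79b (3.16 ± 0.63) and Cd22 (2.28 ± 0.49), and their sums were 979, 1008, 519 and 518 at WT day 15 and 107 to 138 in untreated WT. Without the arrays high in Krt5, 1 of the 9 passed. Macrophage sums were 3445 to 8383 at WT day 15 and 1247 to 2503 in untreated WT, and smooth muscle sums 7449 to 15129 and 17397 to 22006. The part of these cell types in the rise of Cd74 and Ciita was not tested. No gene of the promoter complex passed by limma, 0 at an unadjusted p under 0.05, and 1 passed with array weights. Compared with WT day 7, Ciita alone passed at WT day 15 (1.02 ± 0.29 log2 units, adjusted p = 0.0438, against 2.98% of all genes, 1.84% higher, split 315 to 194 and, with centring, 409 to 131), and that call was lost without any single WT day 7 array or without WT day 15 replicate 1 or 2.

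WT tumors had more H2-Eb1, H2-DMa and Cd74 than untreated WT colons. Cd74 ran from 198 to 1087 with a median of 519.5 in WT tumors, against 114 to 215 in untreated WT colons, a log2 difference of 1.71 ± 0.43 (limma adjusted p = 0.00353). H2-Eb1 ran from 325 to 2462 (median 925.5), against 279 to 592, and differed by 1.32 ± 0.45 (adjusted p = 0.0335). H2-DMa ran from 52 to 334 (median 115), against 35 to 71, and differed by 1.37 ± 0.49 (adjusted p = 0.0398). In all 3 genes the lowest tumors overlapped the untreated arrays, and replicate 6 was the highest tumor. That replicate also had the most smooth muscle marker signal among WT tumors, 15843, where the others had 5523 to 6230. H2-DMb1, H2-Ab1 and H2-Aa, with adjusted p = 0.0555, 0.0575 and 0.0524, missed the threshold, as did Ciita at 0.28 ± 0.26 log2 units. Of all genes 22.7% passed, 12.5% being higher, so a count of 3 of 7 stands against a large background. It was 1 without untreated WT replicate 1, 3 or 4 or WT tumor replicate 2 or 6, and 6 without WT tumor replicate 3. The count was also 1 without the arrays high in Krt5, a fit that kept untreated WT replicates 2 and 3 only. Macrophage sums were 6431 to 9429 in WT tumors and 1247 to 2503 in untreated WT, with 8 of 11 markers higher. All 7 smooth muscle markers were lower, at a median of -1.85 log2 units, with sums of 5523 to 15843 in WT tumors and 17397 to 22006 in untreated WT. With a block for the title code's letter, 4 markers of each of these lists passed. The part of macrophages and smooth muscle in this result was not tested. Between WT tumors and WT day 15 no member passed (log2 differences of -0.70 for Ciita to -0.18 for H2-Ab1, 1 at an unadjusted p under 0.05, 20% of all genes passing).

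**Figure D2:**
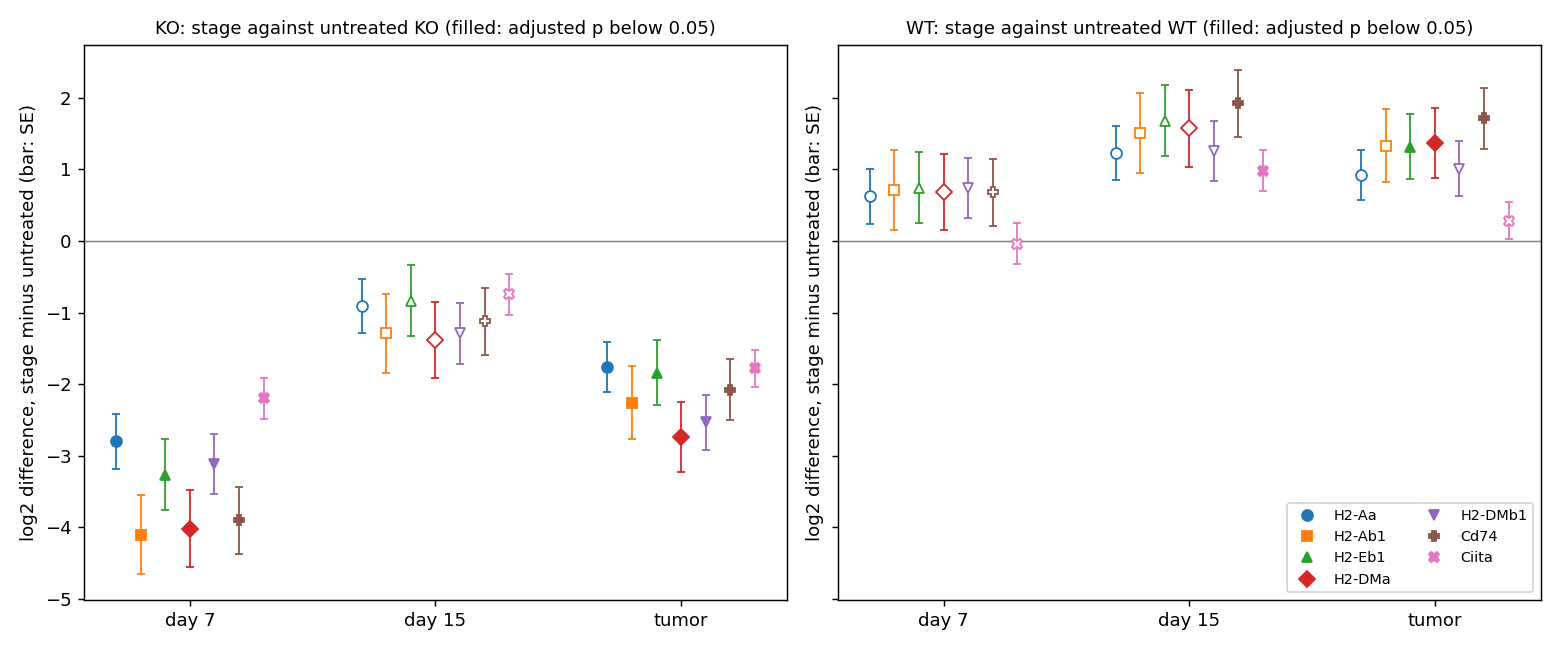
Log2 difference of each stage from untreated colons (points, with SE bars) for the 7 class II genes, KO in the left panel and WT in the right panel, with filled points where the limma adjusted p was below 0.05. In KO all points lie below 0, down to -4.10 for H2-Ab1 at day 7, and in WT all but Ciita at day 7 (-0.04) lie above 0, up to 1.92 for Cd74 at day 15.

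After treatment began, KO and WT were compared again at each stage. At day 7 all 7 log2 differences were negative, from -1.40 for H2-Ab1 to -0.07 for Ciita, but none passed by limma (adjusted p = 0.287 to 0.970, 4 at an unadjusted p under 0.05, 0.287% of all genes passing). For 3 genes, H2-Aa, H2-Ab1 and H2-DMb1, every array labelled KO day 7 lay below every WT day 7 array. The share of all genes that separate like this was not counted. H2-Ab1 was at 184, 165, 269 and 92 in arrays labelled KO day 7, against 355, 336, 761 and 473 at WT day 7. With array weights, 4 of the 7 passed as lower in KO. Macrophage sums were 688 to 1575 in arrays labelled KO day 7 and 1313 to 3532 at WT day 7.

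At day 15 the members differed by 0.36 to 0.89 log2 units, KO minus WT, and none passed (limma adjusted p = 0.487 to 0.884, 1 at an unadjusted p under 0.05, 0.222% of all genes passing). Every member overlapped between the genotypes. In tumors the log2 differences were -0.28 to 0.03 and none passed (adjusted p = 0.9999, 0 at an unadjusted p under 0.05, 0.0526% of all genes passing). H2-Aa ran from 751 to 2569 in KO tumors and from 622 to 2932 in WT tumors, and Cd74 from 183 to 1114 and from 198 to 1087. The 95% intervals of the 7 differences between tumors together spanned -1.15 to 0.75 log2 units, and each held 0.

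**Figure D3:**
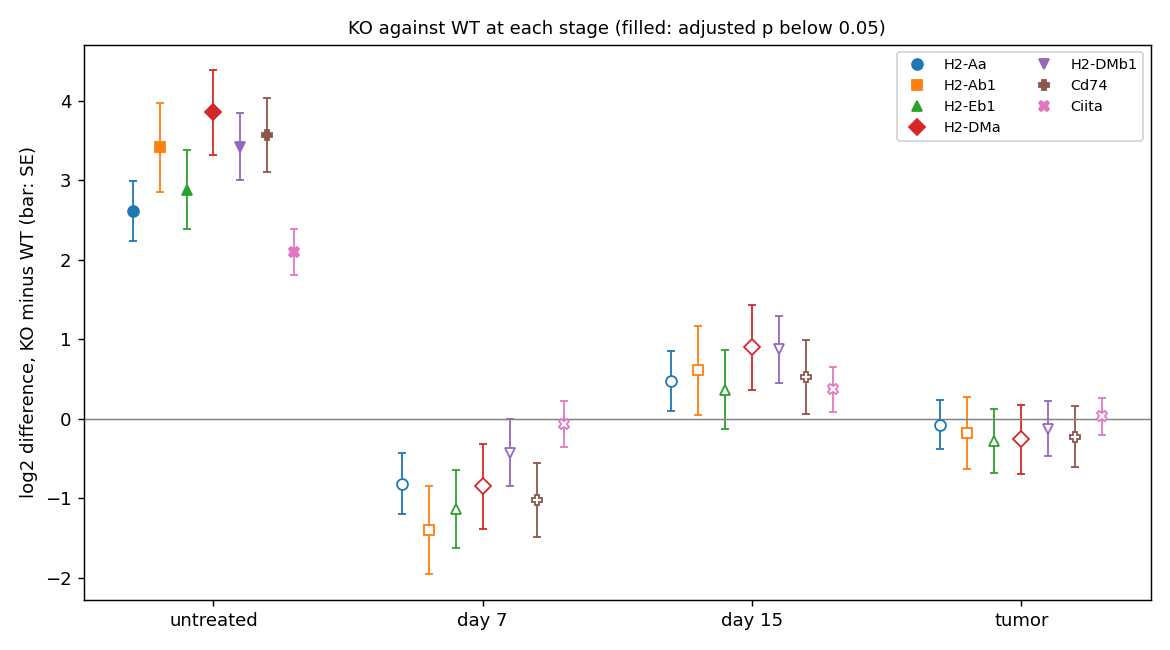
Log2 difference between KO and WT (KO minus WT, points with SE bars) of the 7 class II genes at each stage, filled where the limma adjusted p was below 0.05. All 7 untreated differences are filled and lie between 2.09 and 3.85, and no point at day 7, day 15 or the tumor stage is filled.

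Whether the genotypes changed differently from untreated colons was tested as an interaction. The change to day 7 was more negative in KO than in WT for all 7 class II genes, from -4.82 ± 0.79 for H2-Ab1 to -2.16 ± 0.40 for Ciita, whose value was -1.38 with a pseudocount of 16 (limma adjusted p = 0.00169 or lower), with 2.36% of all genes passing and 1.73% lower. The change to tumors was also more negative in KO for all 7, from -4.11 ± 0.69 for H2-DMa to -2.07 ± 0.37 for Ciita, -1.32 with a pseudocount of 16 (adjusted p = 0.00598 or lower), with 0.784% of all genes passing and 0.714% lower. Without the arrays high in Krt5, 5 of 7 passed for tumors, H2-Ab1 and H2-Eb1 being lost (adjusted p = 0.106 and 0.117). For day 15 the interaction ran from -3.04 for Cd74 to -1.73 for Ciita and no member passed (lowest adjusted p = 0.0521, all 7 at an unadjusted p under 0.05, 0.0819% of all genes passing), whereas all 7 passed without WT day 15 replicate 4. These tests share the untreated arrays with each other and with the comparison of untreated genotypes, so they are not separate evidence.

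Ordered by mean log2 intensity, the groups ran the same way for H2-Aa, H2-Ab1, H2-Eb1, H2-DMa and Cd74. Untreated KO came highest, followed by KO day 15, WT day 15, WT tumor, KO tumor, WT day 7 and untreated WT, with KO day 7 lowest. H2-DMb1 had KO day 7 above untreated WT, and Ciita had KO tumor above WT tumor and untreated WT above WT day 7. Untreated KO did not overlap its neighbour for any member but Ciita. The other neighbours overlapped, except WT day 7 over untreated WT for H2-Aa and WT day 7 over KO day 7 for H2-DMb1.

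The members also varied together among arrays of the same group. With each group's mean subtracted, Pearson correlations over the 36 arrays were 0.773 to 0.972 in the 15 pairs without Ciita, highest for H2-Aa with H2-Ab1, and 0.631 to 0.726 in the 6 pairs with Ciita. Arrays share tissue make-up and quantile normalization, so these are descriptions. The mean z-score of the members was then set against 8993 other genes with a mean of at least 32. The genes most like it over the 36 arrays were H2-DMb2 (r = 0.986), the immunoproteasome subunit Psmb8 (0.952), the guanylate-binding proteins Gbp8 (0.939) and Gbp7 (0.935), and Psmb9 (0.933), another immunoproteasome subunit. Next came the chemokine Ccl5 (0.930), complement C2 (0.926), Calhm6 (0.916) and the interferon-inducible GTPases Igtp (0.915) and Iigp1 (0.914). The 99th percentile over all genes compared was 0.742. After subtracting group means the closest were H2-DMb2 (0.960), Phf20l1 (0.868), Psmb8 (0.852), the ubiquitin-like Ubd (0.850), the T cell chemokine Cxcl9 (0.843), Psmb9 (0.824), the tryptophan-degrading enzyme Ido1 (0.818), Apol7a (0.816), Gbp10 (0.807) and Calhm6 (0.794), with a 99th percentile of 0.641. The lists had 4 genes in common, H2-DMb2, Psmb8, Psmb9 and Calhm6. The probe set of H2-DMb2 may bind transcripts of the member H2-DMb1, so its likeness to the members may not be independent of them. Psmb8 averaged 2530 in untreated KO and 308 in untreated WT colons, and 771 in KO tumors and 650 in WT tumors.

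**Figure D4:**
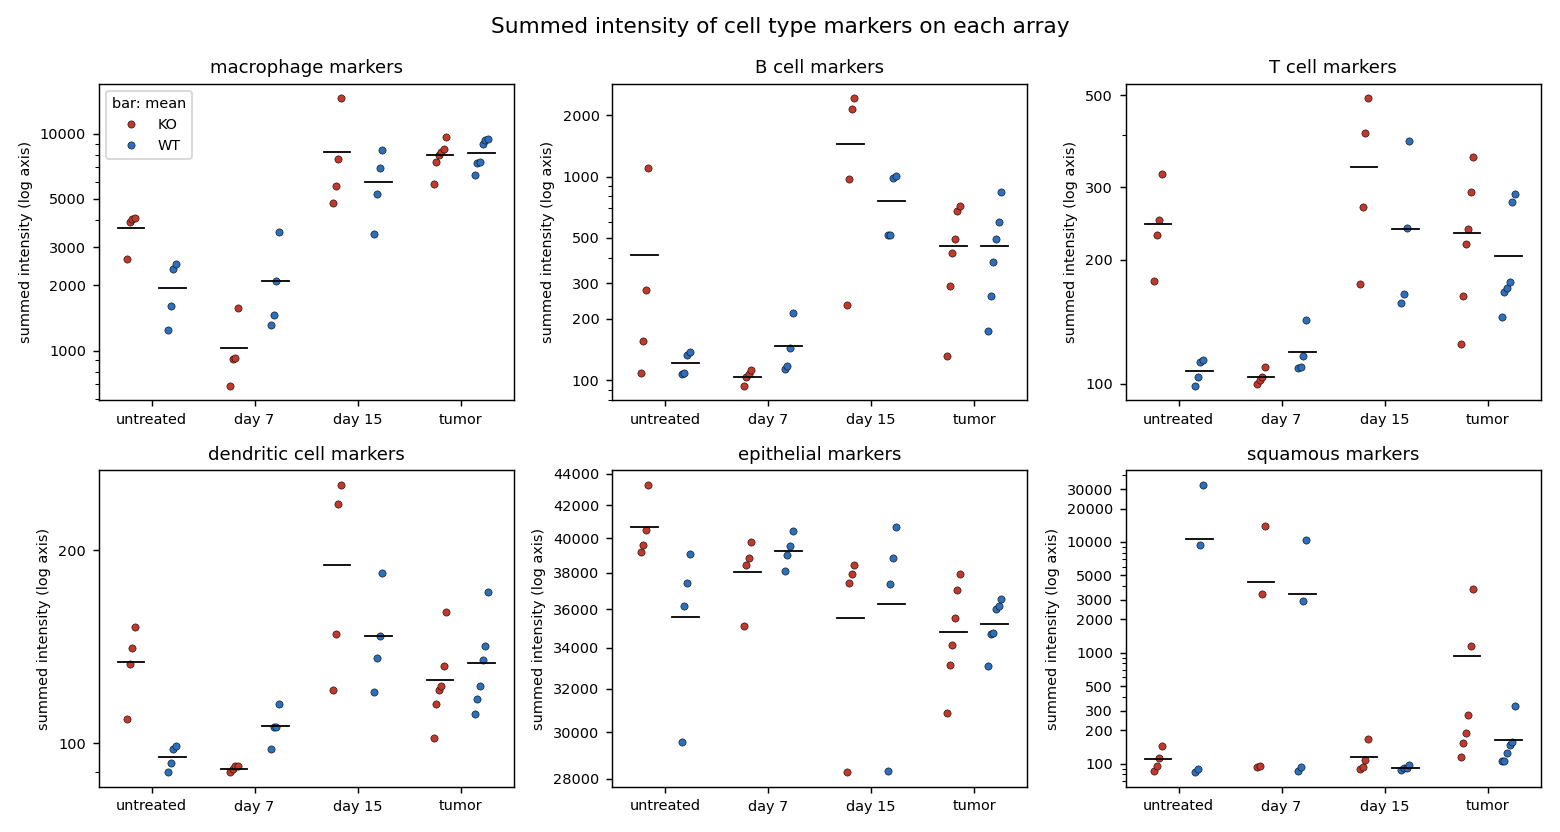
Summed intensity (log axis) of the markers of 6 cell types on each array, by stage, with KO arrays left of WT arrays and bars at the means. Macrophage sums are lowest in arrays labelled KO day 7 (688 to 1575) and reach 5874 to 9645 in KO tumors, and B cell sums peak at day 15. Squamous sums are high on single arrays of untreated WT, day 7 and KO tumors.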

How the data were processed

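The authors deposited intensity values per probe set on a linear scale, 45037 probe sets on 36 arrays, with total RNA extracted in TRIzol and labelled with biotin per the labels' protocols. How the authors corrected background, normalized and summarized probes is not given in the sources used here. Values ran from 4 to 14185, and 36% of the genes had a mean below 16. Arrays have no read depth, and their number limits the precision. After adding 1, the log2 of each intensity was taken and the arrays were quantile normalized. Of the probe sets, 28898 had 1 gene symbol in the platform annotation, 551 several and 15588 none, and the brightest probe set per gene left 17097 genes. Limma 3.58.1 in R 4.3.3 was fitted with 1 mean for each of the 8 groups and moderated variances with an intensity trend, for 14 comparisons of groups and 3 interactions, each adjusted by Benjamini-Hochberg over all genes. The labels give no batch. Overlap between groups was read for the members only, so the share of all genes that separate is not given beside such statements. On simulated data with 100 changed genes per size among 17097, 76 to 92% of those shifted by 1 log2 unit were recovered, and 93 to 100% of those shifted by 2, across the 14 comparisons of groups. Unchanged genes made up 1.04 to 9.04% of the simulated calls, the largest share being in KO day 15 against untreated KO. The changed genes were drawn at random from all genes and given independent noise, so these rates do not describe the members. In the data, H2-DMa at -1.38 log2 units in KO day 15 against untreated KO did not pass (limma adjusted p = 0.194).

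The members and gene lists were chosen with earlier results of these data known, and the lists were described by counts and medians, with no set test. The rule for naming genes took all members, Il17rc, up to 4 genes with the smallest p per list described, defining markers, and the 10 genes most like the members. Gene pairs such as H2-Oa and H2-Ob, and genes that did not pass, were named after their values were seen, as were S100a8 and Psmb8 levels. Each list's count is over its genes measured here, and the others were not analysed here, among them most markers of group 3 innate lymphoid cells. Same-numbered arrays were correlated in their deviations from group means to see whether numbers pair them. Between KO day 15 and WT day 15 (0.173 to 0.800) and between WT day 7 and untreated WT (0.165 to 0.397) every correlation exceeded 0.1, and in no other comparison did all of them. Alternatives were a pseudocount of 16, other normalization, dim genes left out, other probe sets, array weights, other variance moderation, a fit of only the groups compared, blocks for replicate number and for the title code's letter or number, and leaving out each array in turn or the arrays high in Krt5 or in KO Il17rc. The second brightest probe set, and the blocks within the groups compared, were added after seeing the data. Sequences and positions came from RefSeq tables of GRCm38.p6, in which 4 of the 7 members had a promoter that was read.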

Additional observations from a re-analysis of the deposited data

Results flagged for a closer look

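The interaction of genotype and stage passed for all 7 class II genes at day 7 and in tumors, which is a difference between KO and WT in the change from untreated colons. For day 7, the KO change minus the WT change was -3.43 log2 units for H2-Aa, -4.82 for H2-Ab1, -4.02 for H2-Eb1, -4.70 for H2-DMa, -3.85 for H2-DMb1, -4.59 for Cd74 and -2.16 for Ciita. For tumors it was -2.68 for H2-Aa, -3.59 for H2-Ab1, -3.16 for H2-Eb1, -4.11 for H2-DMa, -3.55 for H2-DMb1, -3.79 for Cd74 and -2.07 for Ciita. Both sets share the untreated arrays with each other and with the comparison of untreated genotypes, where all 7 genes were higher in KO. They are not separate evidence from that comparison. In none of the 56 sets of a gene and a group was the highest or lowest array far enough from the others to stand out by Dixon's test.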

How the results depend on the processing

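Of 3059 values of single class II genes under other settings, 2911 kept their side of the threshold, 74 no longer passed and 74 newly passed. The direction changed in 0 values where either fit passed. Some of the 2911 changed direction where neither fit passed. H2-Eb1 in KO day 15 against WT day 15, for example, was at 0.36 log2 units and at -0.01 with array weights. All 7 genes passed under every setting run, single arrays left out included, in untreated KO against untreated WT, in KO day 7, and KO tumor, against untreated KO, in KO day 15 against KO day 7 and in the interaction for day 7. For the tumor interaction the count was 5 without the arrays high in Krt5. The cause of the following moves was not tested. In KO day 7 against WT day 7 the count was 0, and 4 with array weights. In WT day 15 against untreated WT it was 2, and 1 with a pseudocount of 16, centring, no normalization, the mean of probe sets, every probe set, no trend, the replicate block or the number block, 0 with only the groups compared, the letter block or the arrays high in Krt5 left out, 4 with dim genes left out and 7 with array weights, and 0 to 7 with single arrays left out. In WT tumor against untreated WT it was 3, and 6 with dim genes left out or array weights, 1 with only the groups compared, the replicate block, the number block or the arrays high in Krt5 left out, and 1 to 6 with single arrays left out. In WT day 15 against WT day 7 it was 1, and 7 with array weights, 0 with a pseudocount of 16, centring, no normalization, the mean of probe sets, every probe set, only the groups compared, the replicate block, the letter block, the arrays high in Krt5 left out or the second brightest probe set, and 0 to 1 with single arrays left out. In WT tumor against WT day 15 it was 0, and 1 with dim genes left out, array weights or the number block, and 0 to 1 with single arrays left out. In KO day 15 against untreated KO it was 0, and 5 with only the groups compared. In KO tumor against KO day 15 it was 2, and 0 with only the groups compared or the letter block, 1 without the arrays high in Krt5, and 0 to 6 with single arrays left out. For the day 15 interaction it was 0, and 1 with dim genes left out or only the groups compared, 7 with array weights, and 0 to 7 with single arrays left out. With the replicate block within the groups compared, where the numbers deviated together, 0 passed in KO day 15 against WT day 15 and 0 in WT day 7 against untreated WT, as without it. Signal near background limits Ciita, and the second probe set of H2-DMa, at 7 to 14, carried no measurable signal.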

Other observations

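Genes that supply peptides to class II molecules followed the class II genes only in part. Of 9 lysosomal genes, the cathepsin Ctsz was higher in untreated KO than untreated WT colons, by 0.75 ± 0.20 log2 units (limma adjusted p = 0.0409), with means of 1406 and 877, and that call was lost when any of 6 single arrays was left out. In arrays labelled KO day 7 it fell by 1.05 log2 units against untreated KO, where it was the only one of the 9 to pass. Cathepsin S, Ctss, which trims the invariant chain, averaged 3496 in untreated KO and 2735 in untreated WT colons and did not pass (0.36 ± 0.17 log2 units, adjusted p = 0.362). In KO tumors against untreated KO, the asparaginyl protease Lgmn (1.20 ± 0.35), cathepsin D, Ctsd (0.66 ± 0.19), and Ctsh (0.65 ± 0.15) were higher and Ctss was lower (-0.46 ± 0.16, adjusted p = 0.0345), while all 7 class II genes were lower.

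Among genes of co-stimulation and class II turnover, Cd274, which encodes the inhibitory ligand PD-L1, averaged 154 in untreated KO, 23 at KO day 7, 178 at KO day 15 and 39.2 in KO tumors, and 30.2, 24.8, 44 and 34 in the same stages of WT. It was higher in KO in untreated colons by 2.34 ± 0.39 log2 units (limma adjusted p = 0.000223). The co-stimulatory genes Cd80, Cd86 and Cd40 averaged 8.75, 23.2 and 14.8 in untreated KO and 8.75, 14.8 and 12 in untreated WT colons, and none of them passed. Marchf1, which encodes a ligase that removes class II molecules from the surface, rose by 1.51 ± 0.30 log2 units between KO day 7 and KO day 15 (adjusted p = 0.000437).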
